A study of Homo sapiens with 6 samples.

Results

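The genes described here are 9 members of the S100 family (S100A2, S100A4, S100A6, S100A10, S100A11, S100A13, S100A14, S100A16 and S100P) and CALB1, which encodes calbindin-D28k. They were picked by gene name, 10 of the 58735 named genes in the count table, and all 10 passed the filter on low counts that left 15351 genes for testing. S100P and CALB1 were picked because their levels differed between the groups, so their values are given as a description with no test. The other 8 belong to the S100 family and were tested in a fit over all genes.

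The libraries came from LS174T, a human colorectal adenocarcinoma line described in the labels as goblet-like, meaning like the mucus-secreting cells of the gut. The deposited table holds 3 wild-type libraries and 3 libraries labelled FXYD3 knockout, each made from polyA RNA. FXYD3 encodes a small membrane protein that associates with the sodium pump, and the comparison asks what differs in cells labelled as lacking it. The labels give no other treatment, no description of the edit and no number of clones, nor do they tell if each library is its own culture. P-values thus reflect the scatter of these 6 libraries alone, and that scatter may be technical.

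FXYD3 itself had 3.12, 5.11 and 3.42 CPM (reads of a gene relative to the size of its library after TMM scaling) in wild-type libraries 1, 2 and 3 and 5.11, 6.70 and 5.06 CPM in the knockout-labelled ones (log2 fold change 0.54, SE 0.20, edgeR adjusted p = 0.0522). The knockout label thus did not go with a lower FXYD3 transcript, and without wild-type library 2 it was called higher (log2 fold change 0.79). Every direction given here compares libraries by their labels. Depth was 15417232 to 19453217 counts in named genes, and each pair of libraries differed by more than counting noise. Epithelial markers had a summed level of 9508 to 10731 CPM in wild type and 10237 to 10959 CPM in the knockout-labelled libraries. Most of that sum was the keratin genes KRT8 and KRT18, while wild-type means were 38.06 CPM for CDH1 and 2.10 CPM for KRT20. CDX1 and CDH1 were lower among 8 tested. Goblet markers were lower for 6 of 7 tested, beside 12.4% lower among all tested genes, among them SPINK4, AGR2, MUC2 and FCGBP, and their summed level was 714 to 889 CPM against 519 to 575 CPM. Whether the lower goblet markers bear on the values of the S100 genes was not tested. The leukocyte marker PTPRC had 0 counts in every library.

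S100 proteins are small proteins that bind calcium through a pair of EF-hands, helix-loop-helix motifs whose loop holds the ion. Calcium binding opens a hydrophobic face through which S100 dimers grip target proteins such as annexins, cytoskeletal proteins and enzymes. Most S100A genes lie together on chromosome 1, beside genes of epidermal differentiation. Calbindin-D28k is a larger EF-hand protein that buffers calcium in neurons and in calcium-transporting cells such as those of the distal kidney tubule, while its smaller namesake in the mammalian gut, calbindin-D9k, is itself an S100 protein encoded by S100G.

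The coding sequence of the second EF-hand loop is shown because it separates members that can hold calcium there from those that lack the ligands. The 36 bases encode the 12 loop residues, taken from GENCODE release 29 transcripts (GRCh38) and placed by alignment of each translated protein with S100P. Capitals mark the codons for aspartate or asparagine at loop residues 1, 3 and 5 and for glutamate at residue 12, the usual calcium ligands.
S100P: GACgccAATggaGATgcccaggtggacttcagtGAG
S100A2: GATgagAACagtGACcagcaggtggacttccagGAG
S100A4: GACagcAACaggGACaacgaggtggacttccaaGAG
S100A6: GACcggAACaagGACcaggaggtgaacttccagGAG
S100A11: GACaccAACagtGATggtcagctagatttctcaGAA
S100A13: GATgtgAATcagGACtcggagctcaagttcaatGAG
S100A16: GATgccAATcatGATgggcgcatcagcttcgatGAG
S100A10: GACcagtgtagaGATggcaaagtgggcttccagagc
S100A14: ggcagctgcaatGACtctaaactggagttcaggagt

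All 4 ligand codons were present in S100P and in 6 of the S100A members. S100A10 kept 2 of them and S100A14 kept 1. S100A10 is known as the S100 protein that holds its open shape without calcium, and it works in a complex with annexin A2. The encoded S100 proteins were 90 to 105 residues long. Between pairs of them the amino acid identity was 22.8 to 60.8% (36 pairs, median 32.7%), with S100A2 and S100A4 the closest pair. S100P was most like S100A10 among the members (44.2%). The highest identity between coding sequences was 72.1%, also for S100A2 and S100A4. The encoded calbindin-D28k was 261 residues long. It had 4 stretches that matched a related loop pattern, with aspartate at residue 1 and aspartate, asparagine or serine at residues 3 and 5. The pattern also required leucine, isoleucine, valine or methionine at a set place between residues 5 and 12, and glutamate at residue 12.

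S100P encodes an S100 protein first described in placenta and often abundant in carcinomas. The gene (ENSG00000163993) lies apart from the S100A cluster, on chromosome 4 from 6693069 to 6697170 on the plus strand (GRCh38). It had 203, 164 and 231 CPM in wild-type libraries 1, 2 and 3, and 87.1, 91.9 and 80.97 CPM in knockout-labelled libraries 1, 2 and 3. Every knockout-labelled library lay below every wild-type library, in a gene chosen for its change. The groups did not overlap, in either direction, for 37.2% of all tested genes. Behind these values stood 2915 to 3719 reads per wild-type and 1347 to 1796 per knockout-labelled library. The means were 199 ± 33.7 and 86.6 ± 5.47 CPM (SD, n = 3 each), a log2 fold change of -1.20 (SE 0.12, 95% interval -1.47 to -0.93), knockout-labelled over wild type as throughout. That was 0.44 times the wild-type level. Of the 15351 genes tested, 781 had a log2 change of at least that size in either direction.

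CALB1 (ENSG00000104327, on chromosome 8 from 90058608 to 90095475, minus strand) had the opposite direction. Its levels were 68.8, 75.5 and 66.6 CPM in the wild-type libraries and 160, 159 and 172 CPM in the knockout-labelled ones. Every knockout-labelled library stood far above every wild-type one, again in a gene chosen for its change and beside 37.2% of all tested genes without overlap. The means were 70.3 ± 4.63 and 164 ± 7.04 CPM (SD, n = 3 each), which is 2.33-fold or 1.22 on the log2 scale (SE 0.06, 95% interval 1.09 to 1.35). A change at least as large in size was found in 751 of the tested genes.

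**Figure D1:**
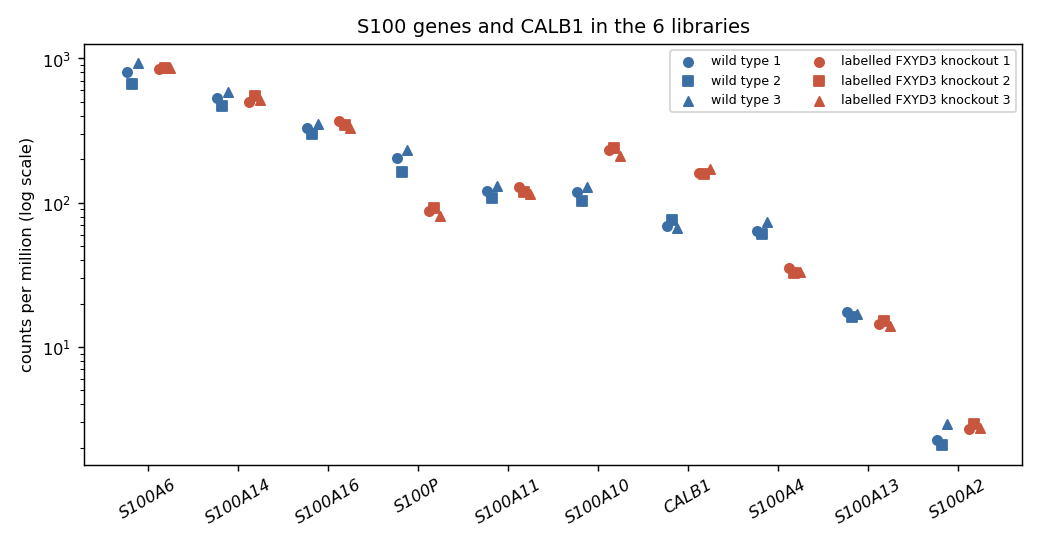
Level of each gene in each library, in CPM on a log axis; blue points are wild-type and red points knockout-labelled libraries, with 1 marker shape per library number. S100P and S100A4 sit lower in red, CALB1 and S100A10 higher, and the points of S100A6, S100A14, S100A16, S100A11 and S100A2 overlap between the groups.

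Among the 8 S100 members that were tested, S100A10 was called higher and S100A4 lower, and the other 6 did not pass an adjusted p of 0.05 (edgeR's quasi-likelihood test, Benjamini-Hochberg adjustment over all genes). Over all tested genes 24.3% were called (1839 higher and 1896 lower), so 2 calls among 8 genes is a share near the background. The median log2 fold change of the 8 was 0.05, against 0.00 over all tested genes (0.0021 unrounded).

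S100A10 (ENSG00000197747, chromosome 1, 151982915 to 151994390, minus strand) encodes p11, which links annexin A2 to membranes, to the large scaffold protein AHNAK and to ion channels. Its levels were 119, 102 and 128 CPM in the wild-type libraries and 232, 240 and 212 CPM in the knockout-labelled ones. All 3 knockout-labelled libraries were above all 3 wild-type ones, beside 37.2% of all tested genes without overlap in either direction. The mean rose from 116 ± 12.9 to 228 ± 14.6 CPM (log2 fold change 0.97, SE 0.07, edgeR adjusted p = 4.1e-10), a rise of 1.96-fold. S100A10 and its neighbour S100A11 lie on the same chromosome at some distance from the other S100A genes.

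S100A4 (ENSG00000196154, chromosome 1, 153543613 to 153550136, minus strand) encodes a protein that binds non-muscle myosin and is known for its link with cell motility and metastasis. Wild-type libraries held 63.9, 60.6 and 73.03 CPM and knockout-labelled ones 35.03, 32.5 and 33.2 CPM. The groups did not overlap, as for 37.2% of all tested genes. The mean fell from 65.8 ± 6.43 to 33.6 ± 1.31 CPM (log2 fold change -0.97, SE 0.08, edgeR adjusted p = 2.25e-10). The size of the fall matched the rise of S100A10 to 2 decimals on the log2 scale.

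S100A6, or calcyclin, had the highest level per length of the S100 genes in every library. It had 799.6, 663 and 928 CPM in wild type and 839, 860.06 and 859 CPM in the knockout-labelled libraries. All 3 knockout-labelled values lay between wild-type libraries 1 and 3, and its log2 fold change of 0.10 did not pass (SE 0.10, 95% interval -0.11 to 0.31, edgeR adjusted p = 0.522). The sign turned to -0.02 without wild-type library 2, and without wild-type library 3 the gene was called higher at 0.22 (adjusted p = 0.0201; adjusted p 0.0201 to 0.838 over all alternatives).

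S100A14 and S100A16, 2 neighbours in the cluster with epithelial expression, were next in abundance. S100A14 had 535, 467 and 589 CPM in wild type and 502, 545 and 515 CPM in the knockout-labelled libraries, with overlapping groups and a 95% interval of -0.17 to 0.12 for its log2 fold change of -0.03 (edgeR adjusted p = 0.823); the change was 0.05 without wild-type library 3. S100A16 had 331, 298 and 348 CPM against 370, 345 and 328 CPM (log2 fold change 0.09, 95% interval -0.04 to 0.22, edgeR adjusted p = 0.319).

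S100A11, or calgizzarin, which pairs with annexin A1, had 121, 107 and 130 CPM in wild type and 128, 119 and 116 CPM in the knockout-labelled libraries. Its log2 fold change was 0.01 (95% interval -0.12 to 0.15, edgeR adjusted p = 0.91), so a change beyond about 0.15 in either direction lies outside its interval. The sign turned to -0.06 when wild-type library 2 was left out and to -0.03 when knockout-labelled library 1 was.

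The remaining pair was low. S100A13, which takes part in the export of growth factors and interleukin-1 alpha that lack a signal peptide, had 17.6, 16.1 and 16.8 CPM in wild type and 14.4, 15.1 and 13.9 CPM in the knockout-labelled libraries. The groups did not overlap, as for 37.2% of all tested genes, but the log2 fold change of -0.21 (SE 0.10) did not pass (edgeR adjusted p = 0.14). S100A13 shares 235 of its 2216 exon bases with S100A1 on the opposite strand and 536 with the transcript AL162258.1 on its own strand, so its reads and theirs cannot be fully told apart. S100A2, a protein of basal epithelial cells, had 37 to 47 reads per wild-type and 42 to 57 per knockout-labelled library (2.42 ± 0.443 and 2.79 ± 0.110 CPM). At this depth the 95% interval of its log2 fold change was wide, from -0.29 to 0.72 (edgeR adjusted p = 0.584).

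**Figure D2:**
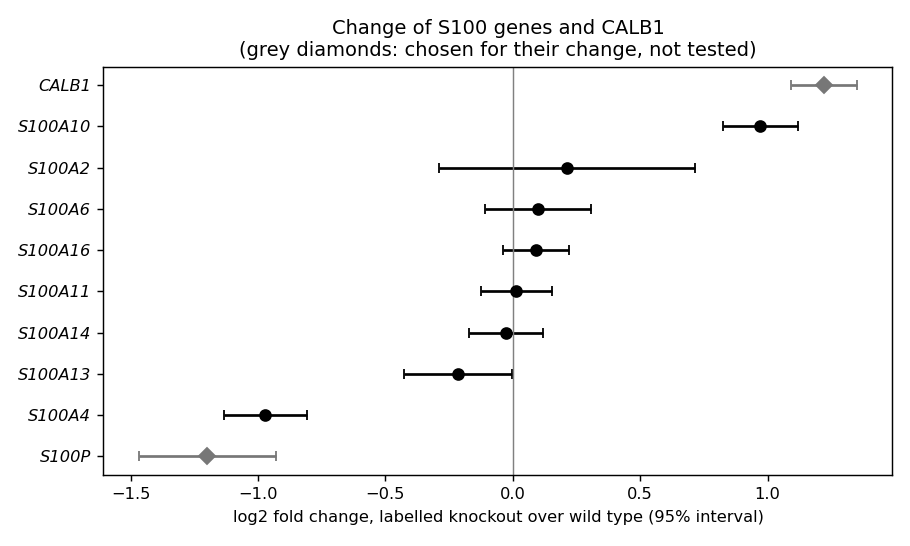
Log2 fold change of each gene, knockout-labelled over wild type, with its 95% interval; black circles are the 8 tested S100 genes and grey diamonds S100P and CALB1, which were chosen for their change. Among the tested genes S100A10 lies right of 0, S100A4 left of it, and the intervals of the others except S100A13 include 0. CALB1 lies right of 0 and S100P left of it, and their intervals are a description, not a test.

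Levels can be set against each other between genes only per length, so CPM were divided by the deposited gene length in kilobases (RPKM). In wild type S100A6 led with a mean of 821 RPKM, followed by S100A14, S100A16, S100A11, S100P, S100A10, S100A4, CALB1, S100A13 and S100A2. The ranges of S100A16 and S100A11, of S100A11 and S100P, and of S100A10 and S100A4 overlapped over the 3 wild-type libraries. In the knockout-labelled libraries S100A10 (148 ± 9.49 RPKM, up from 75.4 ± 8.33) stood above S100P (67.7 ± 4.28 RPKM, down from 156 ± 26.3). These ranks were exchanged, and no neighbours in the knockout-labelled order overlapped. CALB1, whose gene model of 7138 bases is the longest of the 10, stayed in eighth place per length, at 9.84 ± 0.649 RPKM in wild type and 22.95 ± 0.986 RPKM in the knockout-labelled libraries.

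**Figure D3:**
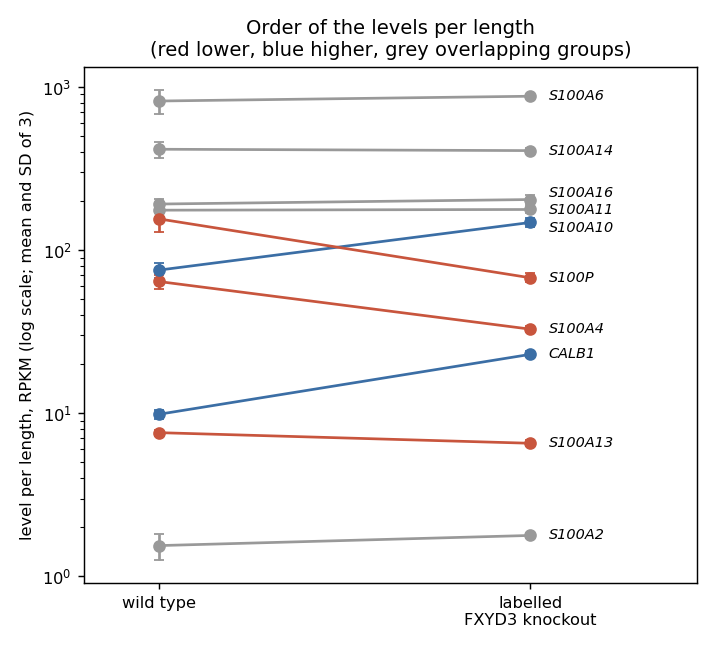
Mean level per length in RPKM (log axis) with SD over 3 libraries, wild type left and knockout-labelled right; red lines are genes whose knockout-labelled libraries all lie below wild type, blue lines genes whose libraries all lie above it, and grey lines genes with overlapping groups. The line of S100A10 crosses that of S100P, and the other genes keep their order.

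Together the 9 S100 genes took 0.190 to 0.239% of the counts of a wild-type library and 0.219 to 0.226% of a knockout-labelled one. The wild-type libraries differed among themselves in a shared way: all 9 S100 genes were lowest in wild-type library 2, and 8 of 9, all but S100A13, were highest in wild-type library 3. CALB1 had the reverse order. The share of all genes with either order was not counted. The median coefficient of variation of the 9 genes was 11.1% in wild type and 4.32% in the knockout-labelled libraries. It was 6.11% and 5.57% over 10486 protein-coding genes of any length averaging 5 CPM or more, a level that S100A2 did not reach. Gene length moved with this pattern. Protein-coding genes shorter than 2000 bases (744 genes) had a median log2 deviation from the wild-type mean of -0.13 in wild-type library 2 and 0.10 in library 3, and those longer than 6000 bases (4376 genes) of 0.04 and -0.04. Its part in the spread of the S100 genes was not tested. In the knockout-labelled libraries the short genes deviated by -0.06 to 0.03. The S100 genes have models of 680 to 2216 bases.

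With offsets that remove each library's trend on gene length, an alternative chosen after seeing the data, the log2 fold changes were -1.15 for S100P, 1.19 for CALB1, 1.02 for S100A10 and -0.93 for S100A4. S100A16 was then called higher at 0.15 (edgeR adjusted p = 0.033; adjusted p 0.033 to 0.76 over all alternatives), which makes 2 of the 8 tested members higher.

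**Figure D4:**
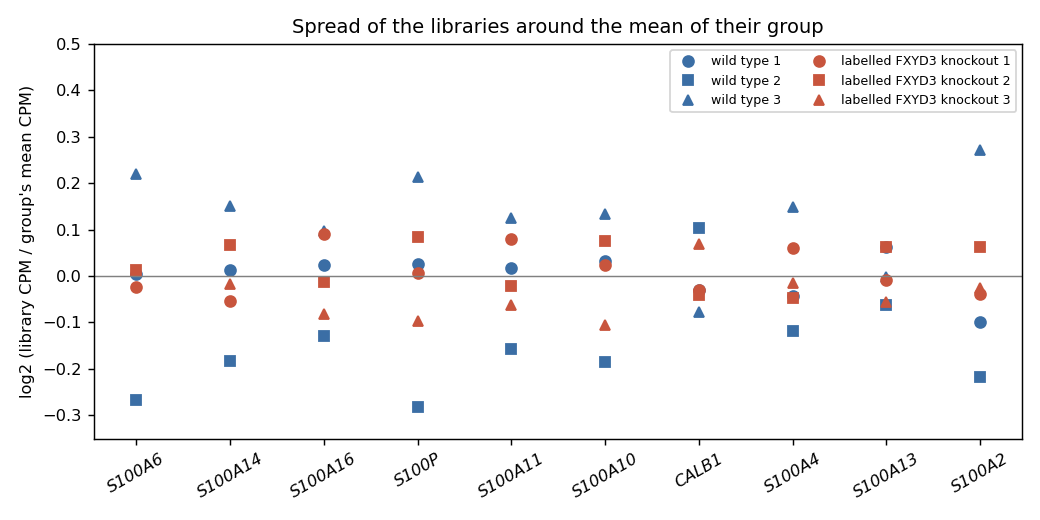
Log2 ratio of each library to the mean of its own group for each gene; blue markers are wild-type and red markers knockout-labelled libraries, with 1 shape per library number. Blue squares (wild-type library 2) are the lowest blue markers for all 9 S100 genes, and the highest for CALB1.

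Promoters are shown for the 3 S100 genes whose groups differed most in log2 fold change, S100P, S100A4 and S100A10 (that of CALB1 is not shown), as the 250 bases before the RefSeq start (GRCh38.p14), 5′ to 3′ on the strand of the gene. They are chr4:6693628-6693877 (plus), chr1:153545807-153546056 (minus) and chr1:151993860-151994109 (minus). Capitals mark matches, on either strand, to 5 motifs that may overlap: the TATA box as TATAAA, the CCAAT box by its name, the GC box as GGGCGG, the AP-1 site as TGANTCA and the hypoxia-response core as ACGTG. Their shares among the 35116 promoters of the RefSeq table were 10.7% for the TATA box, 32.0% for the CCAAT box, 42.6% for the GC box, 6.6% for the AP-1 site and 18.5% for the hypoxia-response core.
S100P: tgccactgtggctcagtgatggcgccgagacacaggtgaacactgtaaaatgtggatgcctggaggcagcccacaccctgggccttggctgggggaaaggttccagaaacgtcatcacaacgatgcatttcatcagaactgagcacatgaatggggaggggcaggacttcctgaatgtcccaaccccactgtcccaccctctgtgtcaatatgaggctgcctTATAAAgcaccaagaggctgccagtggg
S100A4: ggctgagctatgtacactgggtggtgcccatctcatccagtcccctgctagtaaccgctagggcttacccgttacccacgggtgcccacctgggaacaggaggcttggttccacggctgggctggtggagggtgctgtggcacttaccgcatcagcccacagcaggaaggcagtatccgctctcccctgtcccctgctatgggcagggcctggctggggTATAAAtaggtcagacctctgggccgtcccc
S100A10: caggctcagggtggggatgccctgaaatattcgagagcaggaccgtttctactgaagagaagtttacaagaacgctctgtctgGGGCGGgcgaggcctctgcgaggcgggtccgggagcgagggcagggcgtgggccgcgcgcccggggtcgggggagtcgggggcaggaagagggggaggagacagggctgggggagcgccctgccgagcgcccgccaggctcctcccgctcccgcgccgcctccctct

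S100P and S100A4, which were lower, each had TATAAA, starting 28 and 31 bases before the start. S100A10 had a match to GGGCGG alone, and its 250 bases were 71.2% G or C against 55.6% for S100P and 62.8% for S100A4 (median of all promoters 58.0%). All 9 S100 members had an entry. GGGCGG was also found for S100A6, S100A11, S100A13 and the second start of S100A16, and TATAAA for the second start of S100A13, none of which passed the test. The promoters shown were picked by the size of the change, and a link of motifs or base content to its direction was not tested.

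Neighbouring genes were read from the same fit, with the 10 members themselves left out of the counts. Over all 15351 tested genes 12.4% were lower and 1839 genes were higher. The counts per locus are small and were not tested against these shares. Within 500 kb of S100P, 2 of 11 tested protein-coding genes were lower and 0 higher. These were WFS1, which encodes the endoplasmic reticulum protein wolframin (log2 fold change -0.42, SE 0.07), and AC093323.1 (-0.22, SE 0.07), whose call did not hold under the replicate block, nor when wild-type library 1 or either of knockout-labelled libraries 1 and 3 was dropped. The S100A cluster was taken from S100A9 to S100A1, so the surroundings of S100A10 and S100A11 were not read. Around this cluster 1 of 16 was lower, the fatty acid transport gene SLC27A3 (-0.40, SE 0.09), and 0 were higher. S100A4, itself called lower, lies in the cluster and is not among the 16. Around CALB1 2 of 4 were higher, the mitochondrial reductase gene DECR1 (0.24, SE 0.07) and the DNA repair gene NBN (0.19, SE 0.07). DECR1 lost its call without knockout-labelled library 2, and NBN lost it with no filter, with the replicate block and when wild-type library 1 or 3 or knockout-labelled library 1 or 3 was left out.

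Of the 12 other S100 genes, 7 had 0 counts in every library (S100A7, S100A7A, S100A7L2, S100A8, S100A12, S100B and S100G), which allows up to 0.153 to 0.194 CPM per library (3 counts, counting error only). S100A8 and S100A12 are genes of myeloid cells, S100B of glia, and S100G encodes calbindin-D9k of the intestinal absorptive cell. S100A9 had 13 counts summed over wild type and 1 over the knockout-labelled group, and S100Z had 2 and 3. S100A1, S100A3 and S100A5 passed the filter with group means of 0.43 to 2.25 CPM, and edgeR called 0 of them (0 at an unadjusted p below 0.05, and 0 by DESeq2 and by limma voom). S100A3 had a log2 fold change of 0.12 (SE 0.27, adjusted p = 0.798). None of 7 fused-type S100 genes, such as the filaggrin gene FLG (15 counts summed over wild type, 33 over the knockout-labelled group), was high enough to test.

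Annexins are calcium-dependent membrane-binding proteins and the best known targets of S100 proteins. Of 10 tested annexin genes 3 were higher and 4 lower, beside 24.3% called in either direction among all tested genes. The median log2 fold change of the annexins was 0.01. The count of higher annexins was 1 on leaving out wild-type library 1 or either of knockout-labelled libraries 2 and 3, and that of lower ones was 2 without wild-type library 1. ANXA1, partner of S100A11, rose from 73.8 ± 6.31 to 97.3 ± 7.87 CPM (log2 fold change 0.40, SE 0.07, edgeR adjusted p = 0.000136). ANXA5 fell from 139 ± 6.72 to 106 ± 4.72 CPM (-0.39, SE 0.06), ANXA3 from 21.6 ± 1.85 to 14.1 ± 1.25 CPM (-0.62, SE 0.11) and ANXA7 by 0.20 (SE 0.06), the last call being lost on leaving out wild-type library 1 or knockout-labelled library 3.

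ANXA2, whose product binds S100A10, had 759, 676 and 803 CPM in wild type and 869, 847 and 816 CPM in the knockout-labelled libraries. Its log2 fold change was 0.18 (SE 0.06), beside 0.97 (SE 0.07) for S100A10; the difference between them was not tested. ANXA2 passed with an edgeR adjusted p of 0.0417, but not with the replicate block (adjusted p = 0.108), with length offsets, or on leaving out any library other than wild-type 3 (adjusted p 0.0549 to 0.161). AHNAK, the scaffold bound by the annexin A2 and S100A10 complex, had 626 ± 62.6 and 727 ± 79.01 CPM (log2 fold change 0.22, edgeR adjusted p = 0.0517). It passed under 8 of 17 alternatives, at 0.30 among them when wild-type library 2 was dropped and at 0.27 when knockout-labelled library 2 was. Its change was 0.10 with length offsets (edgeR adjusted p = 0.185), 0.16 without wild-type library 3 and 0.12 without knockout-labelled library 3. ANXA11, a partner of S100A6, had 216 ± 14.2 and 240.1 ± 9.47 CPM (adjusted p = 0.0588) and was called under 5 of 17 alternatives, at 0.20 without wild-type library 3 and at 0.16 to 0.18 under 4 other normalizations or filters. ANXA6 had only 49 counts summed over wild type and 17 over the knockout-labelled group. It passed the filter on low counts only through wild type, so its call, though counted among the lower annexins, is a description. ANXA13 and ANXA6 were called higher and lower at group means under 6 CPM, and each call was lost under DESeq2. ANXA13 also lost it without wild-type library 1 or 3 or knockout-labelled library 2 or 3, and ANXA6 without wild-type library 1 or 3 or knockout-labelled library 1 or 2.

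In the list of other S100 partners 1 of 13 tested genes was higher and 1 lower (3 lower without wild-type library 2). Among all tested genes 24.3% were called in either direction, and without wild-type library 2 the lower genes numbered 2401 in place of 1896. HLTF, a chromatin remodeller reported to bind the annexin A2 and S100A10 complex, fell from 17.6, 18.3 and 16.4 CPM to 3.36, 3.79 and 3.16 CPM (log2 fold change -2.34, SE 0.14, edgeR adjusted p = 2.6e-13). The non-muscle myosin gene MYH14 rose from 174 ± 1.57 to 226 ± 17.8 CPM (0.38, SE 0.06, edgeR adjusted p = 1.7e-05). The partners named next were not called. MYH9, the myosin bound by S100A4, had 1010.1 ± 10.98 and 988 ± 59.8 CPM. EZR and IQGAP1, cytoskeletal partners of S100P, had log2 fold changes of 0.02 and -0.03, with signs that changed on leaving out single libraries. CACYBP, the calcyclin-binding protein gene, was at -0.12 (called at -0.16 without wild-type library 2) and S100PBP, the S100P-binding protein gene, at -0.16 (called at -0.21 with length offsets). AGER, a cell-surface receptor for several secreted S100 proteins, was low in both groups (3.03 ± 0.0181 and 2.42 ± 0.386 CPM, edgeR adjusted p = 0.379).

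Other calcium buffers included CALB2, which encodes calretinin, the closest relative of calbindin-D28k. Its wild-type libraries had 9.72, 12.6 and 11.5 CPM, and the knockout-labelled ones 4.85, 3.79 and 3.04 CPM. CALB2 fell by 1.54 on the log2 scale (SE 0.17, edgeR adjusted p = 4.5e-08). The change was thus opposite in sign to that of CALB1. The groups did not overlap for CALB2, as for 37.2% of all tested genes, nor for CALB1, which was chosen for its change. In that list 1 of 5 tested genes was lower and 0 higher, beside 12.4% lower among all tested genes. PVALB and SCGN, for parvalbumin and secretagogin, had 0 counts in every library.

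Among 16 other tested EF-hand genes 4 were lower and 0 higher, beside 12.4% lower among all tested genes. The median log2 fold change of the 16 was -0.07. EFHD2, for an actin-binding EF-hand protein, fell from 168 ± 9.44 to 115 ± 1.38 CPM (-0.55, SE 0.06), and PDCD6, for the membrane-repair protein ALG-2, from 142 ± 2.92 to 103 ± 5.18 CPM (-0.46, SE 0.06). RCN1, for a calcium-binding protein of the endoplasmic reticulum, and CIB1, for a calcium- and integrin-binding protein, fell by 0.24 and 0.25 on the log2 scale, both calls being lost without knockout-labelled library 3, which left 2 lower genes.

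Calbindins serve the transport of calcium across epithelia together with an entry channel and a pump, so that route was examined as well. Of 9 tested genes of the calcium route and vitamin D 2 were higher and 2 lower, beside 24.3% called among all tested genes. In this list 0 were higher without wild-type library 1 or wild-type library 3. The pump gene ATP2B1 went from 92.6 ± 3.81 to 105 ± 4.79 CPM (log2 fold change 0.18, edgeR adjusted p = 0.0295), a call lost with the replicate block, with no filter, with the length offsets and when wild-type library 1 or 3 or knockout-labelled library 1 or 3 was left out. The entry channel gene TRPV6 was near the limit of detection (69 counts summed over wild type and 30 over the knockout-labelled group), as was the exchanger gene SLC8A1 (19 and 58 counts). TRPV6 passed the filter on low counts only through wild type and SLC8A1 only through the knockout-labelled group. Their calls, though counted above, are thus a description. TRPV6 lost its call under DESeq2, with the block and on leaving out wild-type library 2 or any knockout-labelled library, and SLC8A1 lost it without wild-type library 1 or 3 or knockout-labelled library 2. CLDN2, for a channel-forming claudin, fell by 0.36 on the log2 scale (SE 0.10). Without wild-type library 1 its log2 fold change was -0.33 and the call was lost (edgeR adjusted p = 0.0577). VDR, the vitamin D receptor gene, had 155 ± 4.53 and 170.4 ± 14.2 CPM (adjusted p = 0.119; called at 0.19 without knockout-labelled library 1). CYP24A1, a gene strongly induced by active vitamin D, had 0 counts in every library.

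Over these 7 lists of partners and calcium-binding genes, 6 of 56 tested genes were higher and 12 lower, beside 1839 and 1896 of the 15351 genes tested in all. Among those called, ANXA6, TRPV6 and SLC8A1 passed the filter on low counts only through the group where they were higher. The median log2 fold change was -0.06. The count of higher genes was 2 without wild-type library 1 and 3 without knockout-labelled library 3. Over all tested genes the same 2 fits gave 1329 and 1380 higher. That of lower genes ranged from 8 to 15 on leaving out single libraries, and from 1376 to 2401 over all tested genes.

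**Figure D5:**
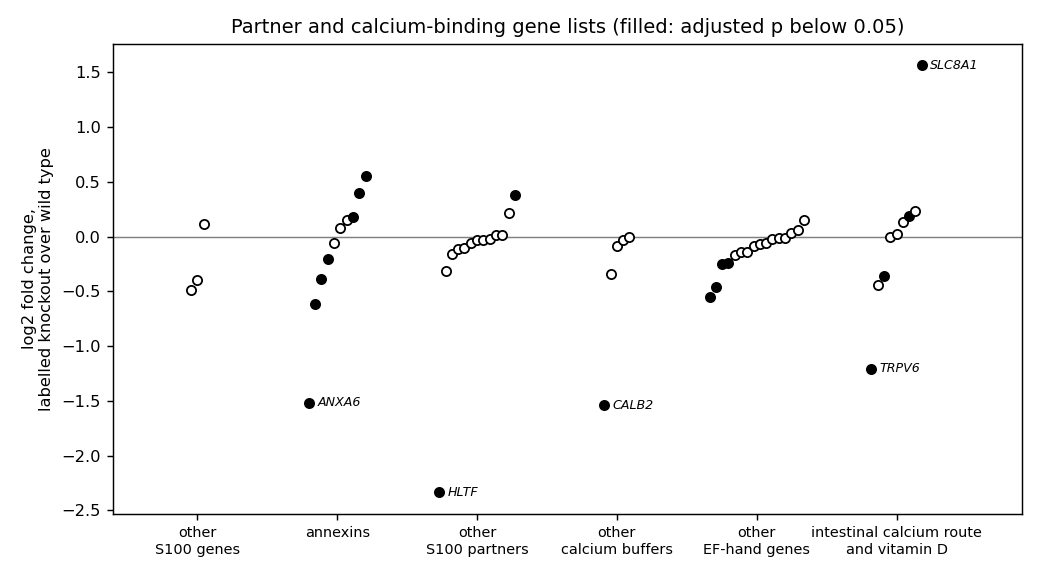
Log2 fold change of each tested gene, knockout-labelled over wild type, in 6 lists of related genes; filled circles passed an adjusted p of 0.05 and open circles did not, and genes called beyond 0.9 are named. HLTF, CALB2, ANXA6 and TRPV6 lie lowest and SLC8A1 highest. ANXA6, TRPV6 and SLC8A1 passed the filter on low counts only through the group where they were higher.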

How the data were processed

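Per the submitters' processing notes, the tools named are HISAT2 2.0.5 and featureCounts 1.5.0-p3; the notes list mm10, but the gene identifiers are human. The sources used here do not state the annotation, the strand setting or how multiply matched reads were treated. The authors deposited raw read counts for each gene. Rows without a gene name (232, 0.13 to 0.25% of counts) were left out. Columns were matched to samples by library name.

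EdgeR 4.0.16 (R 4.3.3) fitted 3 knockout-labelled against 3 wild-type libraries with TMM normalization, filterByExpr (minimum count 10), robust quasi-likelihood tests and Benjamini-Hochberg adjustment over 15351 genes; an adjusted p below 0.05 was called. SE and 95% intervals come from that fit. Alternatives (17) were other normalizations and filters, DESeq2 1.42.0, limma voom 3.58.1, no robust estimation, protein-coding genes alone, the replicate block, length offsets and each library left out. The steps were tested on simulated data. Coding sequences were aligned with Biopython 1.88 (Python 3.11.15).

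The members and lists were chosen with earlier results of these data known. Named genes are all members, FXYD3 and, from each list, up to 4 called genes by smallest p or else the most abundant; up to 4 called neighbours per locus averaging 5 CPM or more; and, for S100P and CALB1, the 3 protein-coding genes with the most similar profile. Every other gene named, among them ANXA2, ANXA6, ANXA11, ANXA13, AHNAK, AGER, EZR, IQGAP1, MYH9, CACYBP, S100PBP and VDR, was chosen after its values were seen, as were the length offsets.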

Additional observations from a re-analysis of the deposited data

How the results depend on the processing

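S100A4 and S100A10 kept their direction and their call under all 17 alternatives, with log2 fold changes of -1.03 to -0.89 and 0.89 to 1.04; for S100P and CALB1 the ranges were -1.32 to -1.08 and 1.18 to 1.27. The number of the 8 tested S100 members called higher was 2 with length offsets and 1 to 2 on leaving out single libraries. FXYD3 passed under upper-quartile scaling (0.56), no filter (0.52), protein-coding genes alone (0.55), the replicate block (0.54) and length offsets (0.56), and ranged from 0.38 to 0.79 on leaving out single libraries. For the related gene lists the count of higher genes ranged from 2 to 7 over the left-out libraries. That of lower genes ranged from 8 to 15. Over all tested genes the counts moved too, from 1329 to 2189 higher and from 1376 to 2401 lower. Signs turned for values that were small or, for S100A1 (SE 0.39), imprecise: over left-out libraries S100A6 ranged from -0.021 to 0.22, S100A11 from -0.061 to 0.078, S100A14 from -0.11 to 0.052 (0.021 with length offsets), S100A1 from -0.76 to 0.10, EZR from -0.0049 to 0.044, IQGAP1 from -0.082 to 0.026 and MYH9 from -0.061 to 0.018. The cause was not tested. Libraries with the same number did not deviate together (correlations of 0.03, -0.12 and -0.15 over tested genes), so the number gives no pairing; with the block 1478 genes were higher and 1475 lower, against 1839 and 1896 without it. Depth limits S100A2, S100A1, S100A5, ANXA6, TRPV6 and SLC8A1, with at most 57 reads in any library.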

Other observations

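Some markers of other cell types changed at low levels. The list of myeloid and lymphoid markers summed to 34.1 to 38.8 CPM in wild type and 32.6 to 33.97 CPM in the knockout-labelled libraries, nearly all of it LYZ, which encodes lysozyme; 4 of its 8 genes had 0 counts. CD14, a co-receptor for lipopolysaccharide, fell from 3.71 ± 0.963 to 0.388 ± 0.141 CPM. It passed the filter on low counts only through wild type (189 counts summed, against 20), so its change is given as a description. Among fibroblast and endothelial markers only COL3A1 passed the filter, and only through the knockout-labelled group (293 counts summed, against 16). As a description, this fibrillar collagen gene rose from 0.313 ± 0.0901 to 5.63 ± 0.453 CPM, with PECAM1 and COL1A2 at 0 counts. The basal keratin gene KRT5 rose from 0.904 ± 0.164 to 2.57 ± 0.279 CPM and the melanosome gene PMEL fell from 6.23 ± 0.684 to 3.85 ± 0.258 CPM.

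The protein-coding genes most like S100P in log2 CPM over the 6 libraries were MCM7, STARD10 and PCK2, with log2 fold changes of -0.33, -0.74 and -0.38. Those most like CALB1 were PDE3A, EPS8 and RTN4RL1, with 3.03, 0.91 and 3.02. The likeness reflects the difference between groups as well as the spread within them: of 10485 genes compared, 1161 had a Pearson correlation above 0.9 with S100P and 907 with CALB1.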
